A study of Mus musculus with 6 samples.

Results

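The RANKL (Tnfsf11), OPG (Tnfrsf11b), RANK (Tnfrsf11a) and osteoclast genes are described here in cultures of mouse bone marrow mesenchymal stem cells (MSCs) with floxed Pcif1, with and without the Prrx1-Cre transgene that deletes it. The 10 genes were chosen by their symbols, as the ligand, the decoy and the receptor (Tnfsf11, Tnfrsf11b and Tnfrsf11a) and 7 genes of the osteoclast (Nfatc1, Oscar, Dcstamp, Ocstamp, Acp5, Ctsk and Calcr). Earlier results of these data were known when these genes and the gene lists below were chosen. All 10 were among the 20071 genes of the count table, and 7 of them passed the filter on low counts, against 13733 genes in all. Together they took between 0.0287% and 0.0321% of the counts of a library.

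The study asked what the m6Am methyltransferase PCIF1 does in bone-forming cells. MSCs were grown from femurs of 6-week-old mice on a C57BL/6J background and kept in osteogenic medium for 7 days, to which dexamethasone (100 nM), β-glycerophosphate (5 mM) and ascorbic acid (50 µg/mL) were added in both groups. Poly(A) RNA of 3 libraries labelled wild type (Pcif1fl/fl) was compared with that of 3 libraries labelled conditional knockout (Prrx1-Cre;Pcif1fl/fl, called the knockout libraries below). Both groups carried floxed Pcif1 alleles, so the genotypes differed in the Prrx1-Cre transgene, which is active in limb mesenchyme and not in the blood lineage. Whether the 3 libraries of a genotype came from separate mice or cultures was not clear from the labels, and the p-values therefore measure the spread between these libraries, which may be technical. The sex of these mice is not given in the sources used here.

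RANKL is a cytokine that osteoblasts, osteocytes and marrow stromal cells place on their surface or shed. It binds RANK on precursors of the macrophage lineage, which then induce the transcription factor NFATc1, fuse, and make the enzymes that dissolve bone mineral and matrix. OPG is a secreted decoy that binds RANKL and keeps it from RANK, so the balance of RANKL to OPG made by the stroma is widely used as a measure of its drive toward osteoclast formation. In an osteogenic culture the ligand and the decoy are expected from the stromal cells, and the other 8 genes mostly from macrophage-lineage cells that adhere with them.

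The libraries held between 20258209 and 28227696 counts. Pcif1fl/fl replicate 3 stood apart from the other Pcif1fl/fl libraries: chi-square per gene was 106 and 90.1 against replicates 1 and 2, compared with 10.2 between those 2, and mitochondrial genes took 3.63% of its counts compared with 1.40% to 1.57% in the other libraries. Results that turn on that library are given with and without it. Between knockout libraries, chi-square per gene was 10.5 for replicates 1 and 2, 10 for replicates 2 and 3, and 2.86 for replicates 1 and 3. Pcif1 itself lay at 42.8, 41.7 and 39.3 CPM (counts scaled by library size) in Pcif1fl/fl and at 39.2, 37.8 and 39.7 CPM in the libraries labelled Prrx1-Cre;Pcif1fl/fl (log2 fold change −0.085, SE 0.092). The count covers the whole gene while the floxed stretch is a part of it, so it does not check the labels. Xist lay between 232 and 443 CPM in Pcif1fl/fl and between 0.722 and 1.79 CPM in the knockout libraries. The Y-linked gene Ddx3y was between 48.4 and 62.2 CPM and between 99.1 and 104 CPM, and Eif2s3y, Kdm5d and Uty were also lower in every Pcif1fl/fl library. Every Pcif1fl/fl library thus held both Xist and Y-linked RNA, as a mix of female and male cells would. The knockout libraries held Y-linked RNA with almost no Xist. These sex-linked genes moved with genotype, and the sex of the cells and their genotype cannot be told apart in any result below.

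Mesenchymal and osteoblast genes were present. Prrx1 lay between 211 and 283 CPM in the controls and between 276 and 283 CPM in the knockout libraries, with overlap. The 14 mesenchymal stromal markers summed to 11042 to 13831 CPM in Pcif1fl/fl and to 17002 to 18085 CPM in the knockout libraries, and 8 of them lay higher and 3 lower without overlap, where 15% and 15.7% of all genes tested did so. Col1a1, a collagen chain of bone, was 3485 to 4491 CPM and 5827 to 6359 CPM (log2 fold change 0.61, adjusted p = 0.0154). Macrophage RNA was abundant as well. Lyz2, a lysozyme of myeloid cells, lay between 21980 and 26233 CPM, and Ptprc (CD45), a marker of all leukocytes, between 171 and 245 CPM. All 20 macrophage and monocyte markers listed were in the table and 19 were tested. Their summed level was 36422 to 39509 CPM in Pcif1fl/fl and 37637 to 41097 CPM in the knockout libraries, so the groups overlapped, and none of the 20 was at or below 3 counts in every library. Csf1r, the receptor of the macrophage growth factor M-CSF, was 1244, 1175 and 1090 CPM in the controls and 1002, 992 and 940 CPM in the knockout libraries (log2 fold change −0.26, adjusted p = 0.141), and 15.120% of its exonic length overlaps the antisense gene Hmgxb3. Ctss, a lysosomal protease of macrophages, lay between 1713 and 2346 CPM in the controls and between 2728 and 3070 CPM in the knockout libraries, without overlap (log2 fold change 0.46, adjusted p = 0.0778). Of other marrow cells, the B cell marker Cd79b stayed at or below 0.405 CPM and the T cell marker Cd3d at or below 0.0481 CPM, while Cd4 was 2.07 to 3.48 CPM. The neutrophil markers Csf3r (10.4 to 15.4 CPM) and Mmp8 (2.49 to 4.68 CPM) overlapped between genotypes, and S100a8 rose from 0.294 to 0.611 CPM to 1.11 to 1.4 CPM (log2 fold change 1.45, adjusted p = 0.0394). The cultures were therefore not MSCs alone, and in such bulk samples fewer cells of a type and less RNA per cell cannot be told apart.

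PCIF1 adds a methyl group to an adenosine that is the first base of a capped transcript, so the base at the start site is shown for members whose RefSeq start window could be read (build GRCm38.p6; 9 windows of 6 members). The windows below run 5′ to 3′ on the transcribed strand, and the first transcribed base is in capitals. The Tnfsf11 window, chr14:78308014-78308293 on the minus strand, is shown at greater length because Tnfsf11 had the greatest fold change among the 7 tested members, and its TATA box core is in capitals too. The Tnfrsf11a window is chr1:105780698-105780747 (plus strand), the Ctsk window chr3:95499185-95499234 (plus strand) and the Oscar window chr7:3616133-3616182 (minus strand).
Tnfsf11: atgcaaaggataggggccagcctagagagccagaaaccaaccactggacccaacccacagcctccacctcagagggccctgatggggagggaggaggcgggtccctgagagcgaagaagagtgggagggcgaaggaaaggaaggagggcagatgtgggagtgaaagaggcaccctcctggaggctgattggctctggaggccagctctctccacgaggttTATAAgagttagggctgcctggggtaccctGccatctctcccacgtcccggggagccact
Tnfrsf11a: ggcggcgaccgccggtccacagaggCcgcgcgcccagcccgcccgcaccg
Ctsk: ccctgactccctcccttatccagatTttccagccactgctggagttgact
Oscar: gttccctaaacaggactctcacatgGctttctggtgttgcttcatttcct
The RefSeq first base was G in Tnfsf11, C in Tnfrsf11a, T in Ctsk and G in Oscar, and it was G, G and C at the 3 starts of Acp5 and A and G at the 2 starts of Calcr, where 34.361% of 32851 RefSeq windows start with A. GENCODE gave the same G for its 1 coding transcript of Tnfsf11, but it gave A for the single coding transcripts of Tnfrsf11a, Ctsk, Tnfrsf11b and Ocstamp. It gave A for 2 of 5 transcripts of Acp5 and 2 of 5 of Calcr, and for 0 of 5 of Dcstamp and 0 of 3 of Oscar, compared with 30.894% of 58797 protein-coding transcripts. The annotations disagree for Tnfrsf11a and Ctsk, and start sites and m6Am were not measured in these libraries. Each window of 300 bases was also searched on both strands for TATAA (the TATA box core), TGTGGT (a Runx core) and TGACTCA (an AP-1 site), which are held by 24.873%, 16.761% and 5.202% of all windows. Tnfsf11 held TATAA 30 bases before its start, with an overlapping match 31 bases before it on the other strand. No window of another member held any of the 3, which says only that these letters were not in these windows.

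The ligand was lower and its decoy higher in every knockout library than in any control library. Tnfsf11, which encodes RANKL (ENSMUSG00000022015, chr14:78277445-78308043, minus strand), had 212, 233 and 165 counts in Pcif1fl/fl replicates 1 to 3 and 105, 101 and 63 in the same replicates of Prrx1-Cre;Pcif1fl/fl. Scaled to library size these were 9.26, 8.56 and 5.92 CPM and 4.73, 5.03 and 3.03 CPM. The highest knockout library lay below the lowest control library, which was replicate 3, and the means were 7.91 ± 1.76 CPM and 4.26 ± 1.08 CPM (SD, n = 3 each). The log2 fold change was −0.89 (SE 0.25, 95% interval −1.45 to −0.33), or 0.54 times the control level, with an adjusted p = 0.0673 in edgeR, so RANKL did not pass either threshold of the call. Once Pcif1fl/fl replicate 3 was left out it was −1.06 with an adjusted p = 0.000876, past both thresholds, and over the 13 alternatives the adjusted p ranged from 0.000876 to 0.222.

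Tnfrsf11b, which encodes OPG (ENSMUSG00000063727, chr15:54250619-54278484, minus strand), lay at 23.7, 23.7 and 24.7 CPM in Pcif1fl/fl and at 31.1, 29.2 and 29.7 CPM in the knockout libraries. Every knockout library was above every control library, and the spread within a genotype was small. The means were 24.0 ± 0.597 CPM and 30 ± 0.971 CPM (SD, n = 3 each), and the log2 fold change was 0.32 (SE 0.096, 95% interval 0.10 to 0.54, adjusted p = 0.0905). Without Pcif1fl/fl replicate 3 it was 0.34 with an adjusted p = 0.00956, the lowest of a range that reached 0.322 over the 13 alternatives. The mesenchymal stromal markers given above stood higher beside it, with a median log2 fold change of 0.34 over the 14 tested, and their part in the result was not tested.

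Taking both members within a library removes the library scaling. The ratio of Tnfsf11 CPM to Tnfrsf11b CPM was 0.391, 0.362 and 0.239 in Pcif1fl/fl replicates 1 to 3 and 0.152, 0.172 and 0.102 in the same replicates of Prrx1-Cre;Pcif1fl/fl. The highest knockout ratio was below the lowest control ratio, again that of control replicate 3. The mean ratio was 0.331 ± 0.0804 in Pcif1fl/fl and 0.142 ± 0.0363 in the knockout libraries (SD, n = 3 each). Per kilobase of transcript, the scale on which the 2 genes can be set side by side, it was 0.417 ± 0.101 and 0.179 ± 0.0457. OPG transcripts thus outnumbered RANKL transcripts in every library, and the log2 ratio differed by −1.22 between genotypes, or 2.33 times, against a pooled SD of 0.39. The ratio is a description of 2 chosen members and carries no test.

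**Figure D1:**
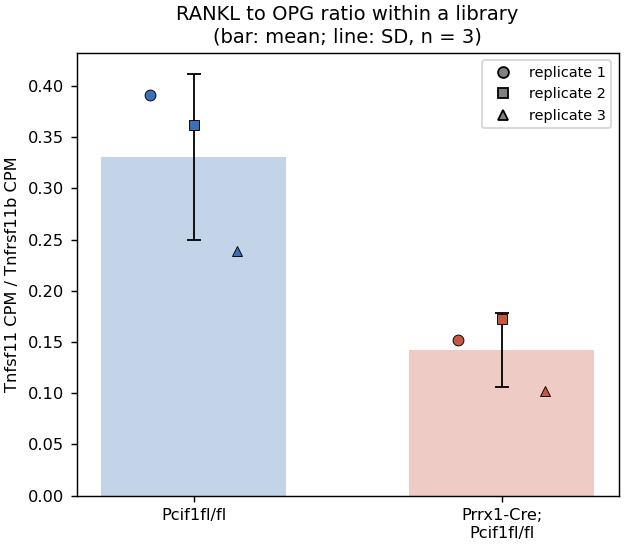
Ratio of Tnfsf11 CPM to Tnfrsf11b CPM (vertical axis, no unit) in each library of both genotypes (points), with the mean (bar) and SD (line, n = 3). The Prrx1-Cre;Pcif1fl/fl libraries lie between 0.102 and 0.172 and the Pcif1fl/fl libraries between 0.239 and 0.391.

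RANK was somewhat higher, and the osteoclast transcription factor NFATc1 somewhat lower, in the knockout libraries. Tnfrsf11a, which encodes RANK (ENSMUSG00000026321, chr1:105780718-105847981, plus strand), was 70.5, 76.1 and 71.5 CPM in Pcif1fl/fl and 83.6, 89.4 and 87.4 CPM in the knockout libraries. The genotypes did not overlap, with means of 72.7 ± 3.0 and 86.8 ± 2.93 CPM (SD, n = 3 each). The log2 fold change was 0.26 (SE 0.085, 95% interval 0.061 to 0.45, adjusted p = 0.122), and without Pcif1fl/fl replicate 3 it was 0.25 with an adjusted p = 0.0207, where the 13 alternatives ran from 0.0207 to 0.367. RANK is carried by osteoclast precursors, and of the 19 macrophage markers tested 14 had a positive log2 fold change (median 0.15), beside 6908 of all 13733 genes. Without overlap, 6 lay higher (Adgre1, Itgam, Fcgr1, Cx3cr1, Cd14 and Ctss) and 1 lower (Csf1r), where 15% and 15.7% of all genes did so. Of the exonic length of Itgam, 68.67% overlaps Gm49368 on the same strand. The summed level of the markers and Ptprc overlapped between genotypes. The part of these markers in the result was not tested.

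Nfatc1 (ENSMUSG00000033016), the transcription factor that RANK signalling induces to drive osteoclast genes, was 67.0, 70.2 and 101 CPM in Pcif1fl/fl and 62.4, 63.3 and 62.4 CPM in the knockout libraries. All 3 knockout libraries lay below all 3 controls, but control replicate 3 was far above the other controls, and replicates 1 and 2 were close to the knockout libraries. The log2 fold change was −0.34 (SE 0.16, 95% interval −0.70 to 0.015, adjusted p = 0.255). Without that library it was −0.13 (adjusted p = 0.206, range 0.144 to 0.5 over the alternatives). Nfatc1 is also made by stromal cells, so its level is not particular to osteoclasts.

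The bone-resorbing enzymes were higher or level. Ctsk, which encodes cathepsin K, the collagen-degrading protease of osteoclasts (ENSMUSG00000028111, chr3:95499256-95509362, plus strand), was 114, 115 and 81.2 CPM in Pcif1fl/fl and 134, 126 and 128 CPM in the knockout libraries. The groups did not overlap, and the low control was again replicate 3. Bulk libraries do not show which cells made this RNA, so the Ctsk level is not a measure of osteoclasts alone. The log2 fold change was 0.32 (SE 0.14, 95% interval 0.0055 to 0.64) with an adjusted p = 0.226, and without control replicate 3 it was 0.18 (adjusted p = 0.0689, range 0.0689 to 0.492). Acp5, which encodes the tartrate-resistant acid phosphatase TRAP used to stain osteoclasts (ENSMUSG00000001348, chr9:22126727-22135711, minus strand), was 7.34, 6.21 and 4.30 CPM and 7.83, 5.77 and 6.74 CPM. Here the genotypes overlapped (log2 fold change 0.19, SE 0.22, 95% interval −0.31 to 0.70, adjusted p = 0.664), and without control replicate 3 the value was 0.011 (adjusted p = 0.974, range 0.362 to 0.974). The interval still allows a fall or a rise of moderate size. Of the exonic length of Acp5, 6.749% overlaps the antisense gene 6530413G14Rik, and since the strand setting of the counting is not given, reads there may belong to either gene.

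**Figure D2:**
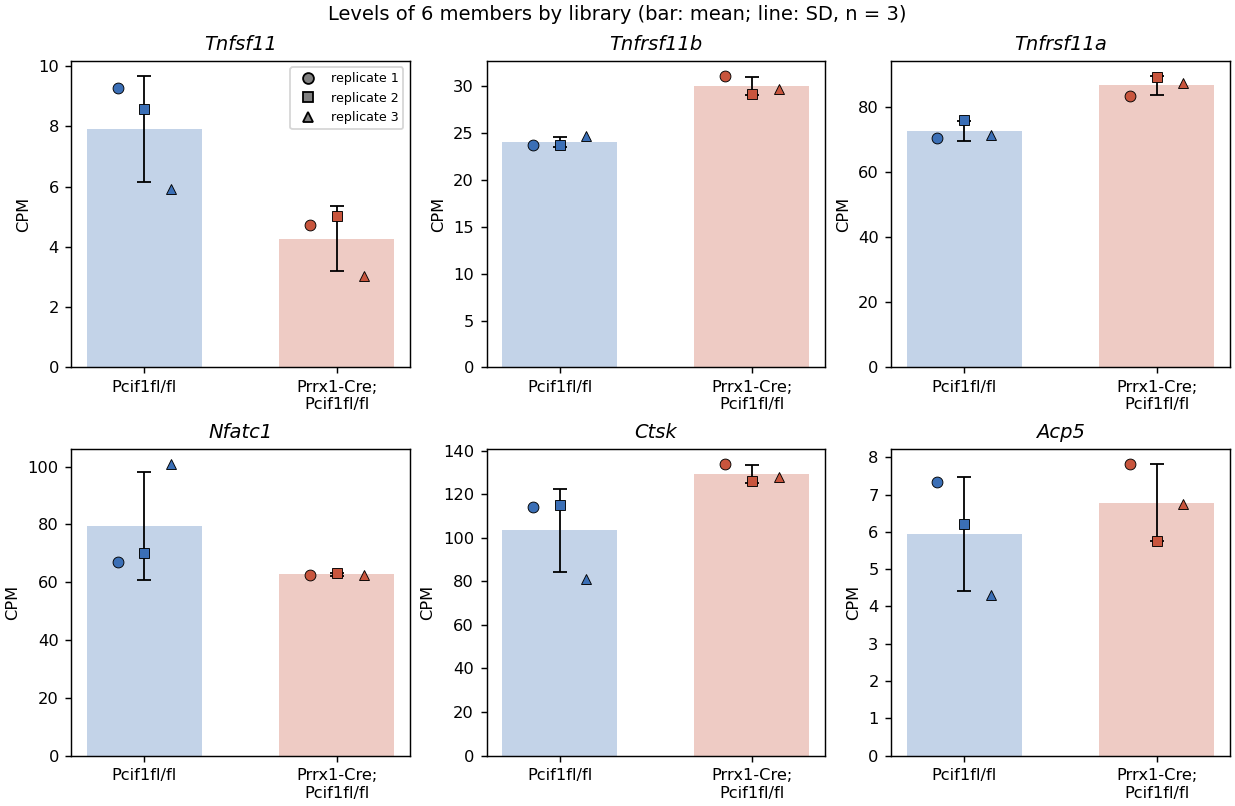
CPM (vertical axes, each from 0) of 6 members in each library (points, shaped by replicate number), with the mean (bar) and SD (line, n = 3) of each genotype. Tnfsf11 and Nfatc1 lie lower, and Tnfrsf11b, Tnfrsf11a and Ctsk higher, in all Prrx1-Cre;Pcif1fl/fl libraries, while Acp5 overlaps. Pcif1fl/fl replicate 3 is the lowest control for Tnfsf11, Ctsk and Acp5 and the highest for Nfatc1.

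The genes most particular to fused, mature osteoclasts were close to the limit of detection. Oscar, an immunoglobulin-like co-receptor of osteoclasts (ENSMUSG00000054594, chr7:3609813-3616157, minus strand), had 8, 19 and 32 counts in Pcif1fl/fl and 19, 15 and 10 in the knockout libraries. The genotypes overlapped, and the fitted log2 fold change of −0.095 (SE 0.46, 95% interval −1.15 to 0.96, adjusted p = 0.93) changed sign under other settings. It was 0.38 without Pcif1fl/fl replicate 3 (adjusted p = 0.632, where the range over the alternatives was 0.574 to 0.988). Dcstamp, a membrane protein needed for osteoclast fusion (chr15:39745930-39760938, plus strand), had 3, 3 and 1 counts in the controls and 7, 0 and 3 in the knockout libraries. Ocstamp, its partner in fusion (chr2:165393760-165400405, minus strand), had 0, 2 and 2 counts and then 2, 11 and 4. Calcr, the calcitonin receptor of mature osteoclasts (chr6:3685680-3764714, minus strand), had 0, 1 and 1 counts and then 5, 0 and 0. The genotypes overlapped for Dcstamp and Calcr. Ocstamp was 0 to 0.0735 CPM in the controls and 0.09 to 0.548 CPM in the knockout libraries. Its counts tied at 2 between the genotypes, so these CPM ranges stand apart only through library size. These 3 genes were below the filter and so were not in the edgeR fit. With no filter the adjusted p was 0.302 for Ocstamp (log2 fold change 2.31, unadjusted p = 0.0488), 0.751 for Dcstamp (0.75) and 0.684 for Calcr (1.43), and DESeq2 gave 0.292 for Ocstamp and 0.843 for Dcstamp, and none for Calcr. Fold changes fitted to so few counts depend on the prior count. Where a library had 0 counts, up to 3 counts remain possible, which is 0.131 to 0.149 CPM in those libraries, for counting error only.

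**Figure D3:**
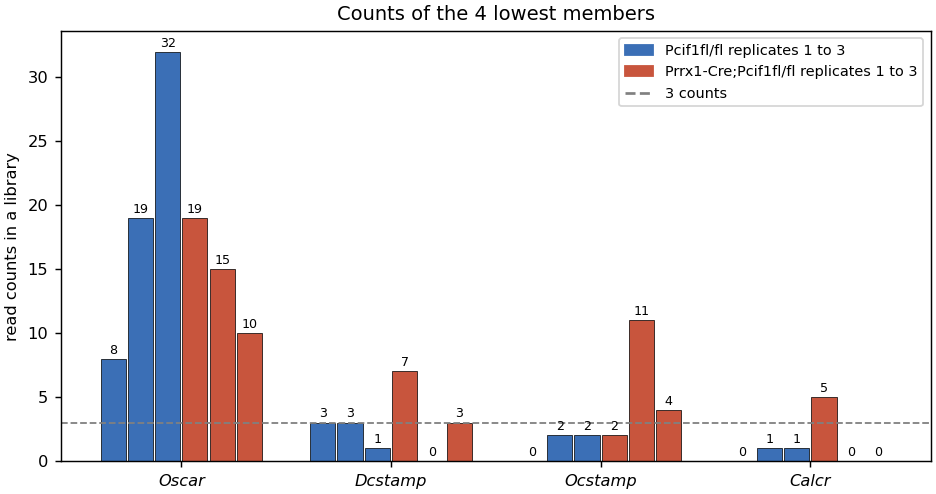
Read counts (vertical axis) of Oscar, Dcstamp, Ocstamp and Calcr in Pcif1fl/fl replicates 1 to 3 (blue) and Prrx1-Cre;Pcif1fl/fl replicates 1 to 3 (red), with the count printed over each bar and a dashed line at 3 counts. Oscar reaches 32 counts in Pcif1fl/fl replicate 3, and the other genes stay at 11 counts or fewer in every library.

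Per kilobase of transcript, the order of the mean CPM per kilobase over the 6 libraries began with Ctsk at 77 (53.7 to 88.7 over the libraries). Tnfrsf11a at 15.9 (14 to 17.8) and Nfatc1 at 14.8 (13 to 21.1) came next, and these 2 overlapped. Tnfrsf11b followed at 9.58 (8.4 to 11). Acp5 at 4.4 (2.97 to 5.41) and Tnfsf11 at 2.72 (1.36 to 4.14) overlapped. Oscar at 0.39, Dcstamp at 0.0615, Ocstamp at 0.0444 and Calcr at 0.0132 closed the order. On this scale 96.4% of the 20059 genes with a known length lay below Ctsk and 57.0% lay below Acp5, whereas 17.4% lay below Ocstamp and 8.8% below Calcr. Ctsk and Tnfrsf11a were thus well expressed in the same libraries in which Dcstamp and Ocstamp stayed near the limit of detection.

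Read as a group, 0 of the 7 tested members were called in either direction by edgeR, where a called gene is one with a log2 fold change of 1 or more in size and an adjusted p-value under 0.05. Over all 13733 genes 2.5% were called lower and 1.03% higher. With no fold threshold 0 of the 7 passed as well, against 4.51% of all genes lower and 2.88% higher. At an unadjusted p under 0.05, 4 of the 7 passed (2932 of all 13733 genes), and with DESeq2 1 member, Tnfsf11, passed the adjusted threshold without reaching the fold threshold. The genotypes did not overlap for 2 members that were lower (Tnfsf11 and Nfatc1), where 15.7% of all genes were so, and for 3 that were higher (Tnfrsf11b, Tnfrsf11a and Ctsk), where 15% were so. The median log2 fold change of the 7 was 0.19, beside 0.0017 for all genes tested. Without Pcif1fl/fl replicate 3, 3 members (Tnfsf11, Tnfrsf11b and Tnfrsf11a) passed the adjusted threshold and 1 was called, and in all genes the numbers passing at any fold then went from 620 lower and 396 higher to 1447 and 1544.

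**Figure D4:**
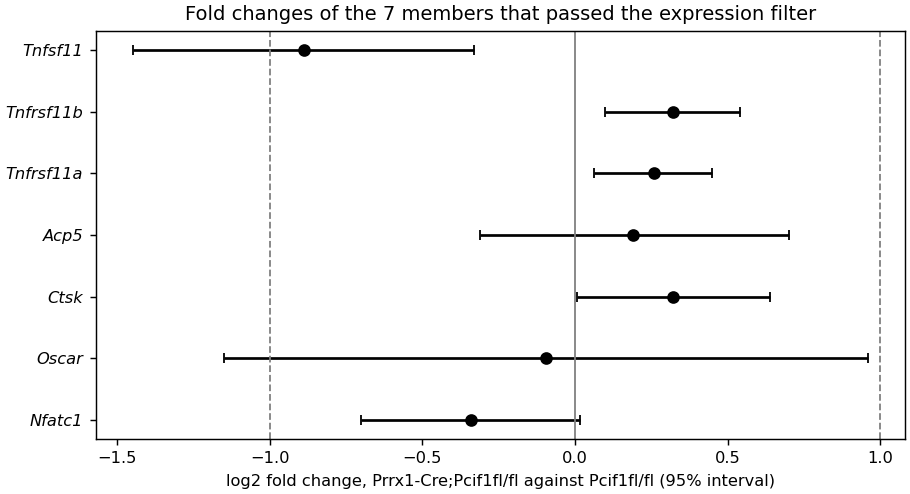
Log2 fold change of Prrx1-Cre;Pcif1fl/fl against Pcif1fl/fl (horizontal axis) with its 95% interval for the 7 tested members, with dashed lines at −1 and 1. The intervals of Tnfsf11 (−1.45 to −0.33), Tnfrsf11b, Tnfrsf11a and Ctsk leave out 0, and those of Nfatc1, Acp5 and Oscar hold it.

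Several other signals by which stromal cells act on osteoclast formation passed the call, in both directions. Of 32 listed, 28 were tested: 2 were called lower and 4 higher, beside 2.5% and 1.03% of all genes tested, with a median log2 fold change of 0.23 beside 0.0017. This list and those below were chosen with earlier results of these data known, so such counts are descriptions only. Cxcl12, the chemokine that holds blood-forming cells and osteoclast precursors in the marrow, fell from 2895 to 3335 CPM in the controls to 498 to 607 CPM (log2 fold change −2.44, SE 0.12, adjusted p = 5.23e-05). Sfrp1, a secreted Wnt inhibitor that can also bind RANKL, fell from 582 to 732 CPM to 99.3 to 130 CPM (−2.53, SE 0.14, adjusted p = 5.23e-05). In contrast, Ccl2, a chemokine that draws monocytes, rose from 10.7 to 13.5 CPM to 55.1 to 58.3 CPM (2.22, SE 0.12, adjusted p = 5.23e-05). Lif, a cytokine of the interleukin-6 family, rose from 6.69 to 8.03 CPM to 14.2 to 16 CPM (1.02, SE 0.13, adjusted p = 0.0027). The remaining calls, named after their values were seen, were Osm (1.77) and Sema3a (1.05), the latter a secreted guidance protein that restrains osteoclast formation. Lif and Sema3a were no longer called when Pcif1fl/fl replicate 2 (0.95 for both) or knockout replicate 2 (0.99 and 0.94) was left out, nor Sema3a without Pcif1fl/fl replicate 1 (0.95).

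Csf1, which encodes M-CSF, the second factor that osteoclast precursors need, was also singled out after its values were seen. It was 398, 365 and 407 CPM in Pcif1fl/fl and 629, 600 and 613 CPM in the knockout libraries, and no libraries overlapped (log2 fold change 0.66, SE 0.086, adjusted p = 0.00277). It thus rose below the fold threshold while RANKL was lower. Il34, the other ligand of the M-CSF receptor, was 25.9, 23.6 and 16.4 CPM and 21.5, 20 and 19.1 CPM, with overlap (−0.12, adjusted p = 0.736). The mesenchymal stromal markers stood higher beside the rises of this list (5 of 14 higher and 2 lower at any fold, median 0.34). Of the macrophage markers, 14 of 19 were positive, with Fcgr1 at 0.89 and Cx3cr1 at 1.24. Cx3cr1 passed the adjusted threshold in 2 of 6 fits that each left out 1 library. Csf1r was lower in every knockout library, and the summed level of these markers overlapped between genotypes. Macrophages can also make Ccl2 and Osm. The part of either marker group in these rises was not tested. With no fold threshold 4 genes of the list were lower and 8 higher, compared with 4.51% and 2.88% of all genes. Without Pcif1fl/fl replicate 3 the numbers were 5 and 12, beside 10.4% and 11.1% of all genes in that fit. Leaving out 1 library at a time, between 6 and 17 genes of the list passed at any fold. The fewest passed without Pcif1fl/fl replicate 2 (4.57% of all genes) and the most without Pcif1fl/fl replicate 3 (21.5%).

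Of 28 receptors and factors that control RANKL and OPG transcription, 26 were tested, 3 were called lower and 1 higher, beside 2.5% and 1.03% of all genes tested, and the median log2 fold change was −0.014. Pth1r, the parathyroid hormone receptor through which osteoblasts and stromal cells raise RANKL, fell from 14.9 to 21 CPM to 6.27 to 8.95 CPM (log2 fold change −1.21, SE 0.19, adjusted p = 0.0061). Il1r1, the receptor of the inflammatory cytokine interleukin-1, fell from 35.7 to 45.6 CPM to 17.6 to 21.1 CPM (−1.08, SE 0.13, adjusted p = 0.00193). Adipoq, the adipokine of fat cells and of marrow adipogenic stroma, a population known to make RANKL, fell from 42.9 to 53.8 CPM to 0.289 to 1.49 CPM (−5.80, SE 0.36, adjusted p = 0.000111). Ptgs2, the cyclooxygenase that makes the RANKL-inducing prostaglandin E2, went the other way, from 3.19 to 5.59 CPM to 17 to 25.2 CPM (2.15, SE 0.24, adjusted p = 0.00124). Vdr, the vitamin D receptor (−0.57), and Lifr, the receptor of LIF (−0.56), passed the adjusted threshold below the fold threshold (adjusted p = 0.0468 and 0.00939). Of 6 fits that each left out 1 library, Vdr passed in 1, the one without Pcif1fl/fl replicate 3 (range 0.00535 to 0.186), and Lifr in 4, failing without knockout replicate 1 or 3 (range 4.45e-05 to 0.076). Il1r1 was at −0.97, short of the fold threshold, once Pcif1fl/fl replicate 3 was left out. The number of genes of the list passing at any fold was 6 (5 lower and 1 higher, beside 4.51% and 2.88% of all genes). It ran from 4 without knockout replicate 1 (3.38% of all genes) to 11 without Pcif1fl/fl replicate 3 (21.5% of all genes). Among osteoblast genes, Alpl, Ibsp and Sp7 were called lower (−1.11, −1.25 and −1.88), while Col1a1 rose as given above.

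Downstream of RANK, all 45 listed signalling and transcription genes were tested, 1 was called (higher, as were 1.03% of all genes), and the median log2 fold change was 0.043. The call was Rcan1, a feedback inhibitor of calcineurin that NFAT factors induce, which rose from 36.6 to 41.9 CPM to 102 to 142 CPM (1.60, SE 0.14, adjusted p = 0.00031). The AP-1 subunits Junb (0.75, SE 0.13, adjusted p = 0.00916), Fos (0.81, SE 0.16, adjusted p = 0.0191) and Fosl1 (0.96, SE 0.22, adjusted p = 0.0349) rose below the fold threshold, and Rcan2 fell by 0.71. Of the exonic length of Fosl1, 57.206% overlaps the antisense gene Ccdc85b, so its counts are uncertain. Only Rcan1 of these 5 passed at any fold without knockout replicate 1, and 9 of the 45 genes passed without Pcif1fl/fl replicate 3, where 21.5% of all genes did so. With every library in, 5 of the 45 passed, beside 7.40% of all genes. These genes are used by stromal cells as well as by osteoclast precursors, and the libraries do not separate them.

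Of 20 co-stimulation and fusion genes, 19 were tested and 0 were called by edgeR or DESeq2 (2.5% of all genes were called lower and 1.03% higher by edgeR), 7 had an unadjusted p under 0.05 in edgeR, beside 21.4% of all genes, with a median of −0.0014. Cd44, an adhesion receptor that takes part in fusion, rose from 153 to 224 CPM to 279 to 317 CPM (0.71, SE 0.15, adjusted p = 0.0229), and it passed in 1 of 6 fits that each left out 1 library, the one without Pcif1fl/fl replicate 3 (0.90). Cd9, a tetraspanin of which 10.665% overlaps the antisense gene Gm26728, was at 0.81 (adjusted p = 0.052), Sbno2 at 0.35 (adjusted p = 0.0658) and Adam8 at 0.33 (adjusted p = 0.0742). Atp6v0d2, a proton pump subunit that is also needed for fusion, was 34.9, 46.3 and 71.6 CPM and then 96.9, 70.2 and 95.6 CPM, with overlap through control replicate 3 (0.78, adjusted p = 0.107). Without that library it was called at 1.11 (adjusted p = 2.14e-05), 7 genes of the list passed at any fold (1 lower and 6 higher, beside 10.4% and 11.1% of all genes in that fit), 14 of the 19 were positive and the median was 0.10. Over all fits that left out 1 library, between 0 and 7 passed at any fold, where 1 of 19 did with every library in (7.40% of all genes).

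Of 30 genes of the resorption machinery, 29 were tested and 0 were called by edgeR (12 at an unadjusted p under 0.05, beside 21.4% of all genes, and 1 called by DESeq2). Yet 24 of the 29 had a positive log2 fold change, compared with 6908 of all 13733 genes, and 12 of 29 lay higher without overlap, where the share of all genes was 15%. Their median was 0.17. Itgav, the integrin αv chain that attaches osteoclasts to matrix, rose from 205 to 254 CPM to 340 to 383 CPM (0.70, SE 0.11, adjusted p = 0.00583). Ctsl, a lysosomal protease, rose from 490 to 622 CPM to 882 to 948 CPM (0.67, SE 0.11, adjusted p = 0.00961), though 26.845% of its exonic length overlaps Gm47123 or Gm49230. Atp6v1a, a subunit of the proton pump (0.42, adjusted p = 0.0438), and Tpm4, a tropomyosin (0.34, adjusted p = 0.0379), passed as well. Levels within the list ran wide: Mmp9, a matrix protease, lay between 1.54 and 2.97 CPM and Car2, a carbonic anhydrase, at or below 0.625 CPM, both with overlap, while Tcirg1, a proton pump subunit, lay between 441 and 509 CPM. Slc9b2, a sodium-proton antiporter induced in osteoclasts, was 3.71, 7.13 and 4.23 CPM and then 15.6, 7.07 and 16.4 CPM (1.37, SE 0.35, adjusted p = 0.0548). Without Pcif1fl/fl replicate 3, 25 of the 29 were positive, the median was 0.091 and 13 passed the adjusted threshold at any fold, all higher, beside 11.1% of all genes higher in that fit. Without knockout replicate 1 only 1 passed, Itgav (0.67), beside 1.06% of all genes higher, so the number passing moved with the fit for all genes as well. The macrophage markers moved beside these genes: 14 of the 19 tested were positive with a median of 0.15, and 6 lay higher without overlap and 1 lower. Fcgr1 (0.89, adjusted p = 0.00605) and Cx3cr1 (1.24, adjusted p = 0.0293) rose. Cx3cr1 passed the threshold in 2 of 6 fits that each left out 1 library (adjusted p 0.000431 to 0.116), those without replicate 3 of either genotype. The mesenchymal stromal markers stood higher too: 10 of 14 were positive with a median of 0.34. Of these 14, 8 lay higher and 3 lower without overlap, beside 15% and 15.7% of all genes. The part of either marker group in the result was not tested.

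**Figure D5:**
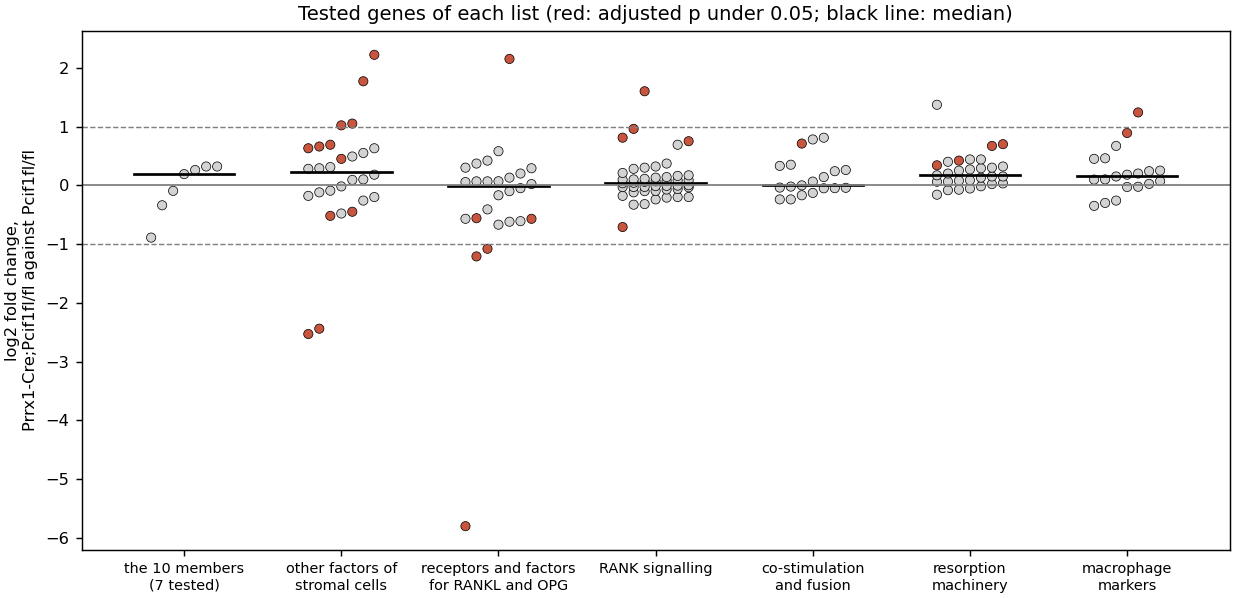
Log2 fold change of Prrx1-Cre;Pcif1fl/fl against Pcif1fl/fl (vertical axis) for each tested gene of the members and of 6 lists, with red points at an adjusted p under 0.05, a black line at the median and dashed lines at −1 and 1. The stromal signals and the regulators of RANKL and OPG hold most of the calls, from Adipoq at −5.80 to Ccl2 at 2.22, while the resorption genes sit mostly between 0 and 1 with a median of 0.17.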

How the data were processed

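Poly(A) RNA-seq libraries (NEBNext Ultra kit, paired-end) were made from MSCs after 7 days of osteogenic induction, 3 per genotype by the labels, although the design text speaks of duplicates. The authors deposited raw counts for each gene after mapping with HISAT2 (mm10). Counting tool, annotation and strand setting are not given in the sources used here. Of 20163 entries, 92 repeated an Ensembl ID and 20071 were used. Libraries held 20258209 to 28227696 counts.

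The main test was edgeR's quasi-likelihood test (edgeR 4.0.16, R 4.3.3, filterByExpr, TMM), with Benjamini-Hochberg adjustment over 13733 genes. Called genes had a log2 fold change of 1 or more in size and an adjusted p-value under 0.05. CPM use the TMM factors. SE was derived from the F statistic of each test. Positions and lengths came from GENCODE M21 on GRCm38 (20059 of 20071 IDs), and start windows from RefSeq (GRCm38.p6). The scripts were tested on simulated data.

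The members and the gene lists were chosen with earlier results of these data known. All 10 members are named, and of each list the up to 4 tested genes with the smallest p, the most abundant markers and fixed defining markers, and any gene named beyond these was chosen after its values were seen. The genes most like Acp5 are not reported here. Alternatives were RLE and total-count scaling, DESeq2 1.42.0, limma-voom (limma 3.58.1), no low-count filter, a minimum mean of 10 counts, no fold threshold, a replicate block and leaving out each library.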

Additional observations from a re-analysis of the deposited data

How the results depend on the processing

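Over 13 refits, Acp5, Ctsk and Nfatc1 kept their direction and side of the threshold. Tnfsf11 passed the adjusted threshold with DESeq2 (log2 fold change −0.89, adjusted p = 0.0155), without the filter on low counts (−0.89, adjusted p = 0.0331) and with a replicate block (−0.90, adjusted p = 0.0264), where its range was 0.000876 to 0.222. Leaving out 1 library at a time gave −1.06 to −0.69 for Tnfsf11, 0.30 to 0.34 for Tnfrsf11b, 0.24 to 0.29 for Tnfrsf11a and −0.40 to 0.38 for Oscar. Oscar reversed with limma-voom (0.016), when replicate 3 of Pcif1fl/fl (0.38) or of Prrx1-Cre;Pcif1fl/fl (0.11) was left out, and it rests on few counts. With no fold threshold the numbers of genes passing were 12 of 28 stromal factors, 5 of 45 RANK signalling genes, 1 of 19 co-stimulation and fusion genes and 4 of 29 resorption genes, beside 7.40% of all genes. Leaving out 1 library, members called lower ranged from 0 to 1, RANK signalling calls from 1 to 2 (Fosl1 added without Prrx1-Cre;Pcif1fl/fl replicate 2), co-stimulation and fusion calls from 0 to 1 and resorption calls from 0 to 1. The resorption call was Slc9b2, which was also 1 call with DESeq2 and 1 without the filter. Why these calls change was not tested. Deviations of same-numbered libraries from their group means correlated at 0.0527, −0.0426 and −0.0155. With 3 libraries per genotype this neither shows nor excludes a pairing by replicate number. With the replicate block 326 genes were called lower and 126 higher in all, beside 343 and 142 without it, and apart from Tnfsf11 it changed no member's side of the threshold. Counts of 11 or fewer limit Dcstamp, Ocstamp and Calcr.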

Other observations

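Over the 6 libraries, the genes of at least 10 CPM whose CPM followed Tnfsf11 most closely among 9242 compared were Pxmp4, Hadha and Ranbp10 (Pearson r of 0.9967, 0.9922 and 0.9861). Those closest to Tnfrsf11b were Sec23a, Cyb5b and Kif26b (0.9967, 0.9956 and 0.9935). Ctsk was followed most closely by Acsl5, Prdx1 and Tomm40 (0.9977, 0.9971 and 0.9966). With 6 points that share genotype and library, and this many genes compared, values this high are a description only.

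Markers of other cells of bone were mostly low. Of the osteocyte list, Dmp1 lay between 0.743 and 2.02 CPM with overlap, Pdpn was 35.8 to 54 CPM in Pcif1fl/fl and 63.1 to 66.3 CPM in the knockout libraries (log2 fold change 0.61, adjusted p = 0.052), and Irx5 was 12.5 to 18.7 CPM and then 6.47 to 8.96 CPM (−1.02, adjusted p = 0.0146). Of the hypertrophic chondrocyte list, Col10a1, the collagen of hypertrophic cartilage, was 2.87 to 3.89 CPM and then 0.914 to 1.29 CPM (−1.61, adjusted p = 0.0052), while Col2a1 was 6.38 to 11.3 CPM and then 11.7 to 16.1 CPM (0.69, adjusted p = 0.111). Of the endothelial list, 3 of 8 had a positive log2 fold change (median −0.43) and 1 was called lower, beside 2.5% of all genes. It was Ramp2, at 0.574 to 1 CPM and then 0.09 to 0.149 CPM (−2.70, adjusted p = 0.0123). Of its exonic length, 33.414% overlaps Vps25 on the same strand. Cdh5 was 10.4 to 16.1 CPM and then 8.08 to 8.41 CPM (−0.66, adjusted p = 0.0618), while Vwf was 6.51 to 7.64 CPM and then 8.21 to 12.5 CPM (0.57, adjusted p = 0.105). Ebf1, a B cell factor that marrow stromal cells also make, was 62.6 to 120 CPM and then 31.5 to 35.6 CPM, and it was the only gene of the B cell list that was tested.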
